A study of Mus musculus with 10 samples.

Results

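The genes described here are those of the oligodendrocyte lineage and of myelin, followed in the subventricular zone (SVZ) after a stroke, in mice with extra Tlx and in wild type mice. The members were 32 genes taken by symbol, older aliases included, of the 19057 named genes on the array. A probe entered the tests if 4 or more of the 9 mice had a detection p-value under 0.05. This left 46 of the members' 57 probes, for 27 of the 32 genes. The study measured gene expression with Illumina mouse bead arrays in SVZ cut out by laser microdissection, to compare 4 Tlx overexpressing mice with 5 wild type mice. All were BL6 mice 8 weeks old, and all had an ischemic stroke in the striatum of 1 side of the brain, so the comparison is between genotypes after stroke and holds no uninjured mouse. Tlx is the nuclear receptor that keeps neural stem cells of the SVZ in an undifferentiated state. The labels name the genotype only, without the promoter or the cells that drove Tlx, the side that was cut out or the time after the stroke.

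The Tlx overexpressing mice were 2995, 3155, 3157 and 3163, and the wild type mice were c1, c2, 2989, 2996 and 3164. Values per mouse are listed in these orders throughout. The labels number the mice in ranges whose meaning they do not give: a lower range (2995 against 2989 and 2996), a higher range (3155, 3157 and 3163 against 3164), and c1 with c2, both wild type. For c1 there were 2 arrays, whose mean was used as 1 mouse. The tissue is a bulk sample, in which fewer cells of a type and less RNA per cell cannot be told apart.

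Oligodendrocytes are the glial cells that wrap axons in myelin. Their precursors carry the PDGF receptor alpha and the NG2 proteoglycan, pass through a short committed stage, and then switch on the proteins and lipid enzymes of the myelin sheath under the control of Olig and Sox transcription factors. In the adult brain the SVZ, best known for making neurons, also makes oligodendrocyte precursors, and the corpus callosum and the fibre bundles of the striatum beside it are rich in myelin.

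No precursor or myelin gene passed the test between the genotypes: 0 of 27 members reached an adjusted p of 0.05 (limma, Benjamini-Hochberg over all 20401 tested probes), in a fit that called 1.13% of named genes and 0.941% of probes. The lowest adjusted p among the members' probes was 0.14. On the brightest tested probe of each gene, 2 of 27 members, Mobp and Opalin, had an unadjusted p under 0.05, against 18.2% of all named genes. Dimmer probes of Mbp (limma unadjusted p = 0.029), Neu4 (0.040) and Mobp (0.042) were also under 0.05. In 0 of 27 did the genotypes separate without overlap, against 6.8% of named genes. The mean was higher in the Tlx overexpressing mice for 18 of 27 members, where 50.3% of all named genes were higher. The members' differences of log2 signal had a median of 0.065 and ran between -0.41 for Opalin and 0.52 for Gsn, beside a median of 0.001 over all named genes. On the brightest probe, the 95% interval lay within 2-fold in either direction for 26 of 27 members, all but Gsn, and within 1.5-fold for 23. Over all 11376 tested named genes the interval did so for 11193 and 10252. On 2 dimmer Mbp probes it reached past 2-fold, with upper limits of 1.07 and 1.17 in log2. The plot of differences shows each interval.

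**Figure D1:**
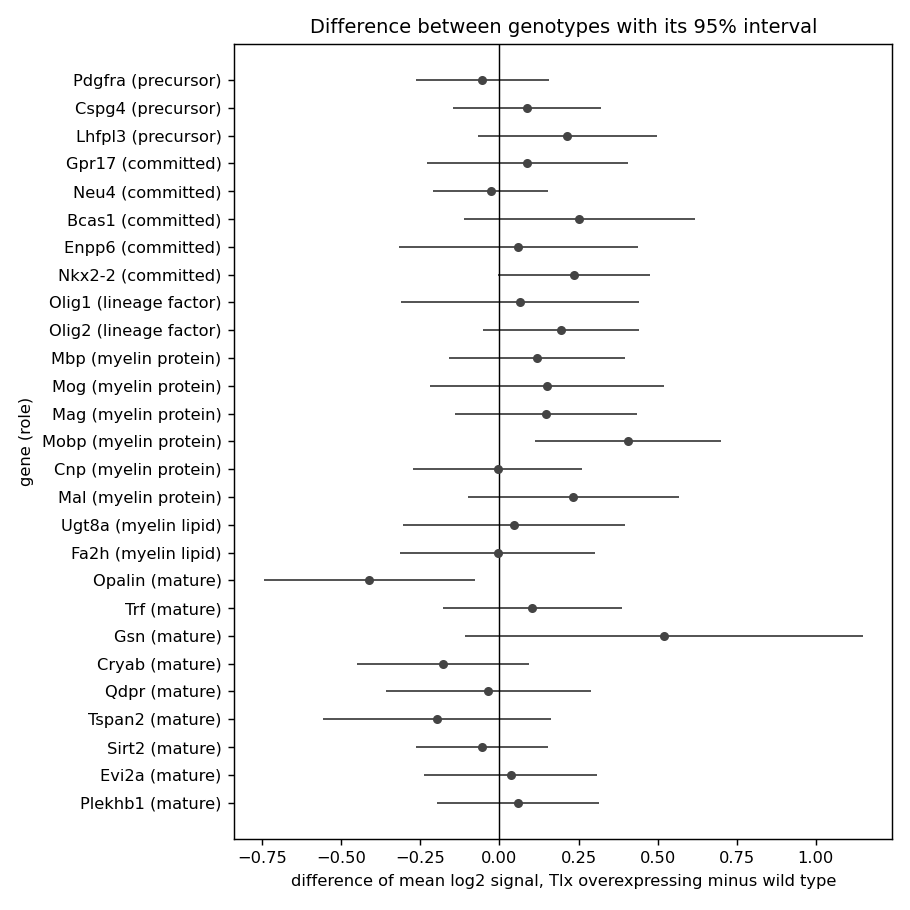
Difference of the mean log2 signal, Tlx overexpressing minus wild type (horizontal axis), for the brightest tested probe of each of 27 genes, grouped by role. Points are the difference and bars its 95% interval from limma. Only the intervals of Mobp and Opalin leave out 0, and neither gene passed after adjustment.

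Mobp and Opalin, the pair with the smallest p, are shown by the start of their genes because both are expressed by mature oligodendrocytes and their differences had opposite signs. RefSeq promoter windows on GRCm38.p6, 250 bases before to 50 after the start, matched 23 of the 32 members. Capitals mark matches, on either strand, to the letters of SOX protein sites (ACAAT and ACAAAG) and to 1 form of the E-box (CAGCTG) that basic helix-loop-helix factors such as Olig2 bind. The letters ACAAAG were added after reading the Mobp window. The windows are chr9:120149492-120149791 on the plus strand for Mobp and chr19:41077064-41077363 on the minus strand for Opalin, each written 5′ to 3′ along its gene.
Mobp: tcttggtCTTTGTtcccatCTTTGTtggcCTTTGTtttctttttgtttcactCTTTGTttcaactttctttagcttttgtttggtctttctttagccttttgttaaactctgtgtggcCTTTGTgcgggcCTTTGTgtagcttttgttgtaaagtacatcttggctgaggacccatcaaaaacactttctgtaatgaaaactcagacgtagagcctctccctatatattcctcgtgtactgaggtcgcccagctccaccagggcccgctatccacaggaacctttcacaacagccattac
Opalin: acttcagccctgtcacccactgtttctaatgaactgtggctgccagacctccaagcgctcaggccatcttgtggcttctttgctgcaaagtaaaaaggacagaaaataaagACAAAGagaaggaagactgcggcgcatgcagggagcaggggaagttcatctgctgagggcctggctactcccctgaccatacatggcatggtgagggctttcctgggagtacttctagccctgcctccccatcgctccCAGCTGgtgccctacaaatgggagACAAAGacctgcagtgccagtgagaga
The Mobp window held 6 matches to ACAAAG, each read on the opposite strand as CTTTGT, and none to the other letters. The Opalin window held 2 matches to ACAAAG and 1 to CAGCTG. Of 32851 windows in the table, 18.7% held ACAAAG at least once, while 31% held ACAAT and 16.3% held CAGCTG. Of the members' 32 windows, 9 held ACAAAG, 11 held ACAAT and 5 held CAGCTG. These are matches of letters and were not tested as binding sites.

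Among the precursor genes, Pdgfra, the receptor for platelet-derived growth factor, read 8.02, 7.73, 7.77 and 7.74 in the Tlx overexpressing mice, against 7.82, 7.72, 8.00, 8.04 and 7.76 in wild type mice (log2 signal). The genotypes covered the same range, with mouse 2995 alone high among its genotype, and the difference was -0.05 (SE 0.10, limma adjusted p = 0.81). Cspg4, which encodes the NG2 proteoglycan, had 5.68, 5.78, 6.11 and 5.62 in Tlx overexpressing mice, against 5.84, 5.82, 5.75, 5.57 and 5.58 in wild type mice. Mouse 3157 was the highest and the rest were mixed, for a difference of 0.09 (SE 0.11). Lhfpl3, a tetraspan membrane protein of precursors, had 5.83, 6.02, 6.00 and 5.70 in the Tlx overexpressing mice, against 5.64, 5.46, 5.62, 5.51 and 6.14 in wild type mice. Of the wild type mice 4 lay below every Tlx overexpressing mouse and the remaining one, 3164, above them all, so that the difference of 0.21 (SE 0.13) came with an adjusted p of 0.42 in the limma fit. With mouse number range as a block it was 0.002. The other Lhfpl3 probes differed by 0.003 and -0.05. The fourth precursor gene, C1ql1, was detected in 0 of 9 mice.

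Genes of the committed stage were at most 1.19-fold higher. Nkx2-2, a homeodomain factor of differentiating oligodendrocytes, had the smallest p of this stage. It read 6.72, 6.96, 6.93 and 6.75 in the Tlx overexpressing mice, against 6.87, 6.43, 6.75, 6.36 and 6.60 in wild type mice. Wild type mice c2, 2996 and 3164 lay below the Tlx overexpressing range and c1 and 2989 within it (difference 0.24, SE 0.11, limma adjusted p = 0.30), and a second probe differed by 0.24. Bcas1, a marker of oligodendrocytes starting to myelinate, had 12.08, 12.74, 12.51 and 12.53 in Tlx overexpressing mice, against 12.04, 12.14, 12.63, 12.46 and 11.79 in wild type mice. Mouse 3155 was the highest and 3164 the lowest, with c2, 2989 and 2996 among the Tlx overexpressing values, for a difference of 0.25 (SE 0.17).

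Gpr17, a receptor that marks the committed stage and is lost on maturation, had 8.30, 8.33, 8.56 and 8.36 in Tlx overexpressing mice, against 7.81, 8.36, 8.73, 8.40 and 8.20 in wild type mice. The wild type mice spanned a wider range on both sides, with c1 lowest and 2989 highest (difference 0.09, SE 0.15). Enpp6, a choline phosphodiesterase of newly formed oligodendrocytes, had 7.79, 8.20, 8.10 and 7.89 in Tlx overexpressing mice, against 7.75, 7.50, 8.33, 8.38 and 7.72 in wild type mice. Wild type mice 2989 and 2996 lay above and the other wild type mice below the whole Tlx overexpressing range, for a difference of 0.06 (SE 0.17). The sialidase gene Neu4 was dim, with a mean of 5.05 ± 0.08 in Tlx overexpressing mice (SD, n = 4), against 5.07 ± 0.12 in wild type (SD, n = 5). Its 3 probes differed in sign, at -0.03, 0.14 and -0.22.

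The lineage factors showed the same overlap. Olig1 read 10.15, 10.20, 10.02 and 10.11 in the Tlx overexpressing mice, against 9.75, 9.83, 10.72, 10.25 and 9.74 in wild type mice. The Tlx overexpressing mice lay close together in the middle of a wide wild type range, and the difference was 0.07 (SE 0.17). Olig2, which is needed for the lineage to form, read 5.19, 5.27, 5.21 and 5.04 in Tlx overexpressing mice, against 4.97, 4.87, 5.32, 4.70 and 5.05 in wild type mice. Wild type mouse 2989 was the highest and 2996 the lowest of the 9, and the difference was 0.19 (SE 0.11, limma adjusted p = 0.40).

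Of the myelin proteins, Mobp, a basic protein of compact myelin, had the smallest p of all members. On its brightest probe, ILMN_1223628, it read 10.84, 10.91, 11.03 and 10.93 in the Tlx overexpressing mice, against 10.30, 10.47, 10.98, 10.65 and 10.21 in wild type mice. All Tlx overexpressing mice lay above 4 of the 5 wild type mice, and 2989 lay among them. The difference was 0.41 (SE 0.14, limma adjusted p = 0.14), or 1.33-fold. It was 0.02 in the lower range of mouse numbers and 0.75 in the higher range. The other Mobp probes differed by 0.14, 0.24, 0.17 and 0.38, all with the same sign. Without wild type mouse 2989 the difference was 0.52 and passed the threshold (limma adjusted p = 0.0496). That mouse was the highest of the wild type on this probe, so leaving it out could only raise the difference. With any other single mouse left out, no member probe passed.

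Mal, a proteolipid of myelin membranes, had 9.50, 9.86, 9.60 and 9.52 in Tlx overexpressing mice, against 9.25, 9.40, 9.97, 9.14 and 9.16 in wild type mice. Wild type mouse 2989 was again the highest of all, and the other wild type mice lay below every Tlx overexpressing mouse (difference 0.23, SE 0.16). A dimmer Mal probe had the other sign, at -0.32. Mag, the adhesion protein that faces the axon, had 11.16, 11.44, 11.36 and 11.37 in Tlx overexpressing mice, against 11.03, 11.29, 11.62, 11.10 and 10.88 in wild type mice. The ranges overlapped, with 2989 highest and 3164 lowest (difference 0.15, SE 0.13).

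Mbp, the protein that compacts the sheath, read 13.38, 13.84, 13.60 and 13.66 in Tlx overexpressing mice, against 13.48, 13.34, 13.79, 13.69 and 13.20 in wild type mice on its brightest probe. The genotypes were interleaved, and the difference was 0.12 (SE 0.13, limma adjusted p = 0.67). Mog, on the outer face of the sheath, and Cnp, the cyclic nucleotide phosphodiesterase of noncompact myelin, differed by 0.15 (SE 0.17) and -0.006 (SE 0.12). In both, wild type mouse 2989 was the highest of 9 and 3164 the lowest.

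**Figure D2:**
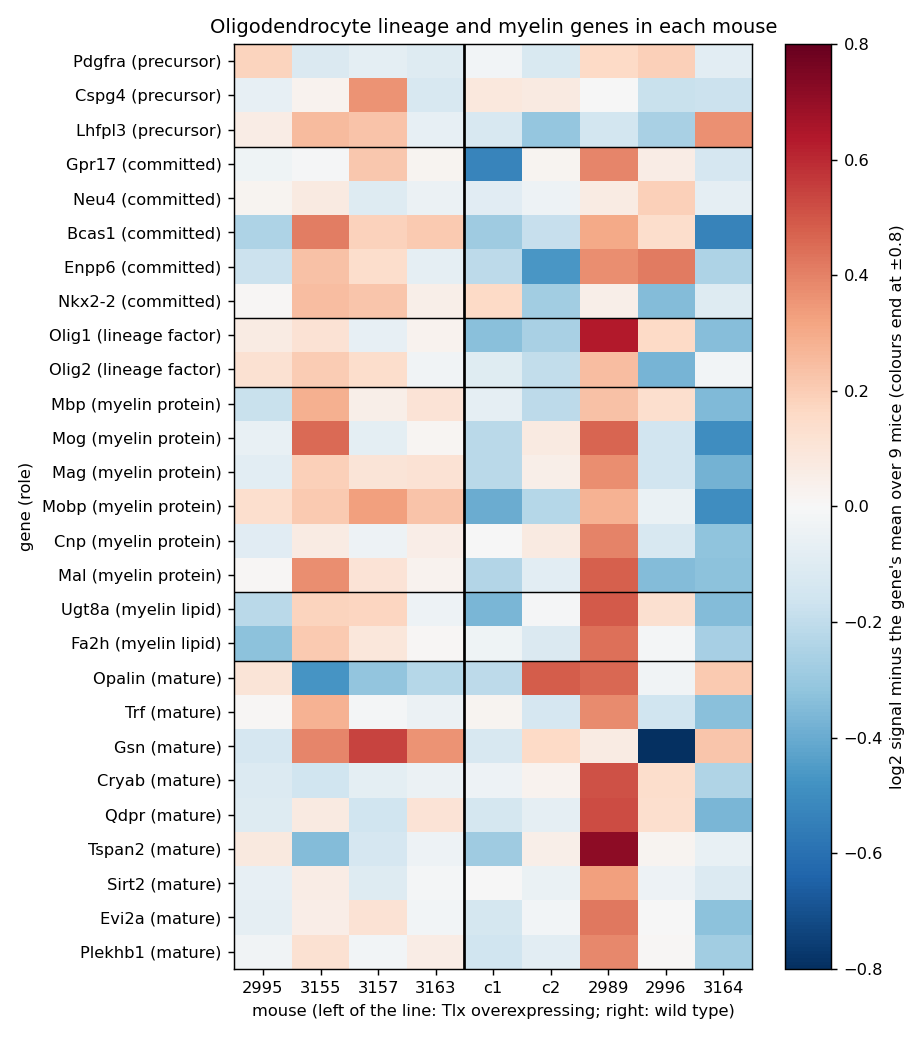
Log2 signal of each of 27 genes minus its mean over the 9 mice, as colour (red higher, blue lower), with mice as columns and genes as rows grouped by role. The column of wild type mouse 2989 is red and that of wild type mouse 3164 mostly blue from Mbp down, while of the 3 precursor rows at the top Pdgfra shows the same signs weakly and Lhfpl3 the opposite ones; Gsn in mouse 2996 lies beyond the colour scale.

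The myelin lipid enzymes had close means in the genotypes. Ugt8a, the galactosyltransferase that makes galactosylceramide, had 9.59, 9.99, 9.98 and 9.77 in Tlx overexpressing mice, against 9.44, 9.79, 10.30, 9.94 and 9.46 in wild type mice. The fatty acid hydroxylase gene Fa2h had 9.55, 10.09, 9.97 and 9.88 in Tlx overexpressing mice, against 9.84, 9.76, 10.32, 9.86 and 9.61 in wild type mice. In both genes 2989 was the highest of the 9 mice, and the differences were 0.05 (SE 0.16) and -0.006 (SE 0.14). Aspa, the enzyme that frees acetate for myelin lipids, was detected in 1 mouse at most and was not tested.

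Among the other genes of mature oligodendrocytes, Opalin, a transmembrane protein of the oligodendrocyte, was the lowest of all members. It read 9.76, 9.18, 9.34 and 9.43 in the Tlx overexpressing mice, against 9.45, 10.14, 10.11, 9.62 and 9.86 in wild type mice. Mice 3155, 3157 and 3163 lay below all wild type mice, and 2995 lay within the wild type range. The difference was -0.41 (SE 0.15, limma adjusted p = 0.19), with -0.11 in the lower range of mouse numbers and -0.55 in the higher range. Opalin was measured by 1 probe.

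The actin-severing protein Gsn had the widest interval, at 6.47, 6.99, 7.15 and 6.96 in Tlx overexpressing mice, against 6.47, 6.76, 6.67, 5.13 and 6.83 in wild type mice. Mouse 2996 stood far below all others, and the difference of 0.52 (SE 0.29) was 0.06 on the other Gsn probe. The small heat shock protein Cryab had 9.18, 9.13, 9.21 and 9.25 in Tlx overexpressing mice, against 9.25, 9.32, 9.80, 9.43 and 9.05 in wild type mice. Only 3164 of the wild type mice lay below all Tlx overexpressing mice (difference -0.18, SE 0.13). The tetraspanin Tspan2 had 8.89, 8.46, 8.68 and 8.77 in Tlx overexpressing mice, against 8.52, 8.86, 9.53, 8.83 and 8.75 in wild type mice, with 2989 far the highest (difference -0.20, SE 0.17).

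The remaining tested members of this class differed by between -0.05 and 0.10. These were the iron carrier Trf, the dihydropteridine reductase Qdpr, the tubulin deacetylase Sirt2, Plekhb1 and Evi2a, and wild type mouse 2989 was the highest and 3164 the lowest of 9 in each. The cytoskeletal protein gene Ermn was detected in 0 mice, and the connexin gene Gjb1 and the receptor gene Gpr37 in 3 mice each at most, so these were not tested.

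**Figure D3:**
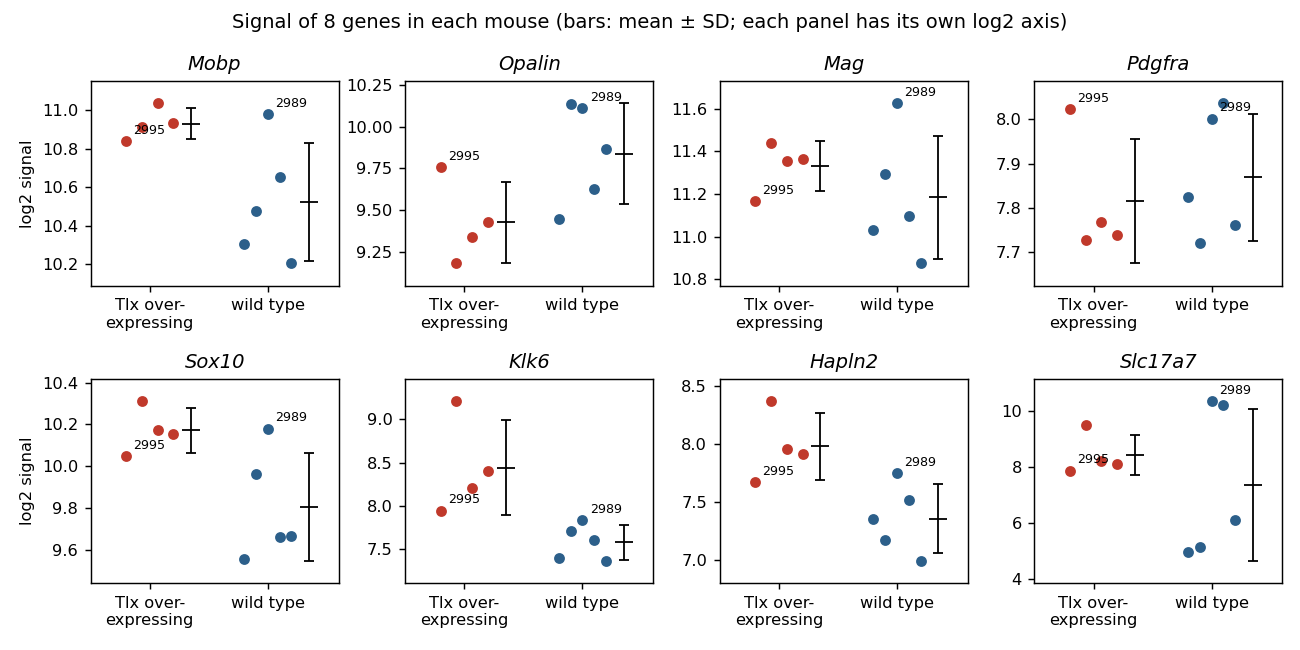
Log2 signal of 8 genes in each mouse, one point per mouse, Tlx overexpressing mice at the left and wild type mice at the right of each panel; bars are the mean ± SD (n = 4 and n = 5), and mice 2995 and 2989 are marked. Klk6 alone of these panels separates the genotypes, and Slc17a7, a gene of glutamatergic neurons, spans 4.97 to 10.37 among wild type mice.

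Wild type mice 2989 and 3164 were the outermost of the 9 mice in many members. Mouse 2989 was the highest of the 9 in 16 of 27 members, and in 13 of the 17 myelin and mature members, against 11.2% of all named genes. Mouse 3164 was the lowest in 13 of 27 members and in 11 of those 17, against 10.7% of all named genes. For the level of a list, each gene's mean over the 9 mice was subtracted from its log2 signals and the results were averaged over the list for each mouse. Over all 27 members it was -0.04, 0.13, 0.07 and 0.02 in Tlx overexpressing mice, against -0.15, -0.07, 0.33, -0.07 and -0.21 in wild type mice. The wild type mice thus covered a range that held every Tlx overexpressing mouse. The median SD of a member was 0.14 among Tlx overexpressing mice and 0.28 among wild type mice, beside 0.13 and 0.15 over all named genes. The difference of the level was 0.08 over all mice, -0.17 in the lower range and 0.28 in the higher range.

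The 2 arrays of mouse c1 differed by a median of 0.12 over the 27 members and by 0.32 at most. Between c1 and the other mice the median was 0.17 to 0.52.

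The precursor and myelin genes were also contrasted within each mouse. The precursor level (Pdgfra, Cspg4 and Lhfpl3) minus the level of the 17 myelin and mature genes was 0.12, -0.06, 0.14 and -0.14 in Tlx overexpressing mice, against 0.13, -0.11, -0.41, 0.04 and 0.29 in wild type mice. Both genotypes lay on both sides of 0, and the extremes were wild type mice 2989 and 3164. The Tlx overexpressing mice averaged 0.02 ± 0.14 (SD, n = 4), against -0.01 ± 0.27 (SD, n = 5) for wild type, and the difference of 0.03 was smaller than either SD. The difference was 0.31 in the lower range and -0.31 in the higher range. In the lower range Tlx overexpressing mouse 2995 stood alone for its genotype, and in the higher range wild type mouse 3164 did. The precursor level alone ran between -0.10 and 0.17 in Tlx overexpressing mice and between -0.12 and 0.04 in wild type mice. It rests on 3 genes, of which Cspg4 (5.57 to 6.11) and Lhfpl3 (5.46 to 6.14) were rather dim. The myelin and mature level ran between -0.07 and 0.12 in Tlx overexpressing mice and between -0.25 and 0.41 in wild type mice.

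**Figure D4:**
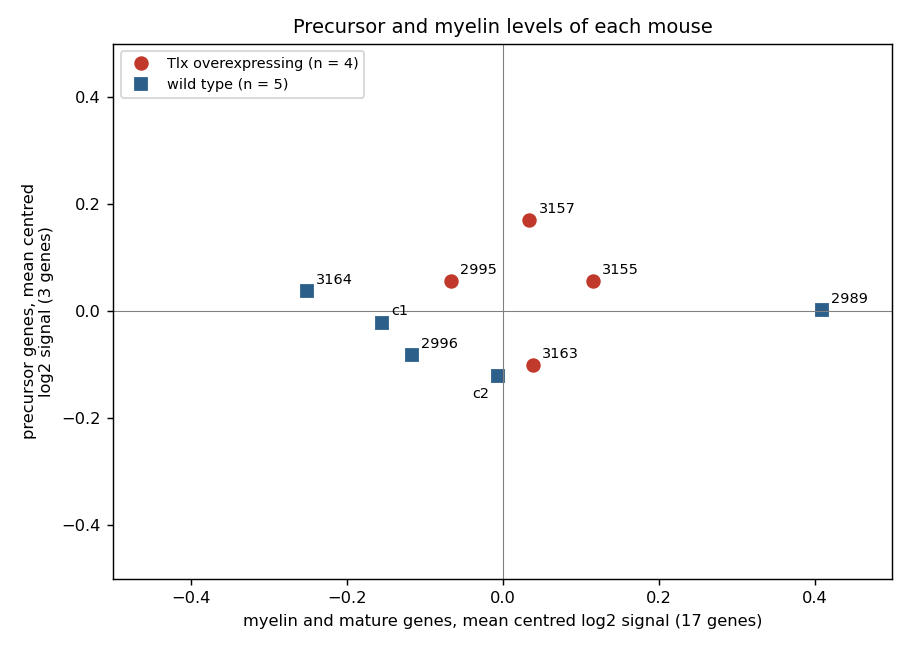
Mean centred log2 signal of 17 myelin and mature genes (horizontal axis) against that of 3 precursor genes (vertical axis), one point per mouse, on axes of equal range. The wild type mice spread along the myelin axis between -0.25 in 3164 and 0.41 in 2989, and the Tlx overexpressing mice lie between them.

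Probes of the same gene did not always give the same picture. The 5 tested Mbp probes differed between the genotypes by 0.12 (the brightest), 0.57, 0.16, -0.06 and 0.48. Wild type mouse 2996 read 13.69 on the brightest probe, above the mean of either genotype, but 6.58 on ILMN_1227299, 4.54 on ILMN_2639865 and 8.66 on ILMN_3081854, the lowest of the 9 mice on each. Relative to the brightest probe and to the other mice, these 3 were shifted in mouse 2996 by -1.35, -0.81 and -1.63. Over the 19 pairs of probes of 11 members, the median size of such shifts was 0.32 in mouse 2996 and 0.04 to 0.17 in the other mice. Over 6194 pairs of all named genes it was 0.16 in mouse 2996 and 0.09 to 0.14 in the others, and 7.99% of pairs were shifted below -0.5 in 2996, against 0.549% to 2.05% in the others. Which transcripts the probes read, and the part of RNA quality in this spread, was not tested.

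**Figure D5:**
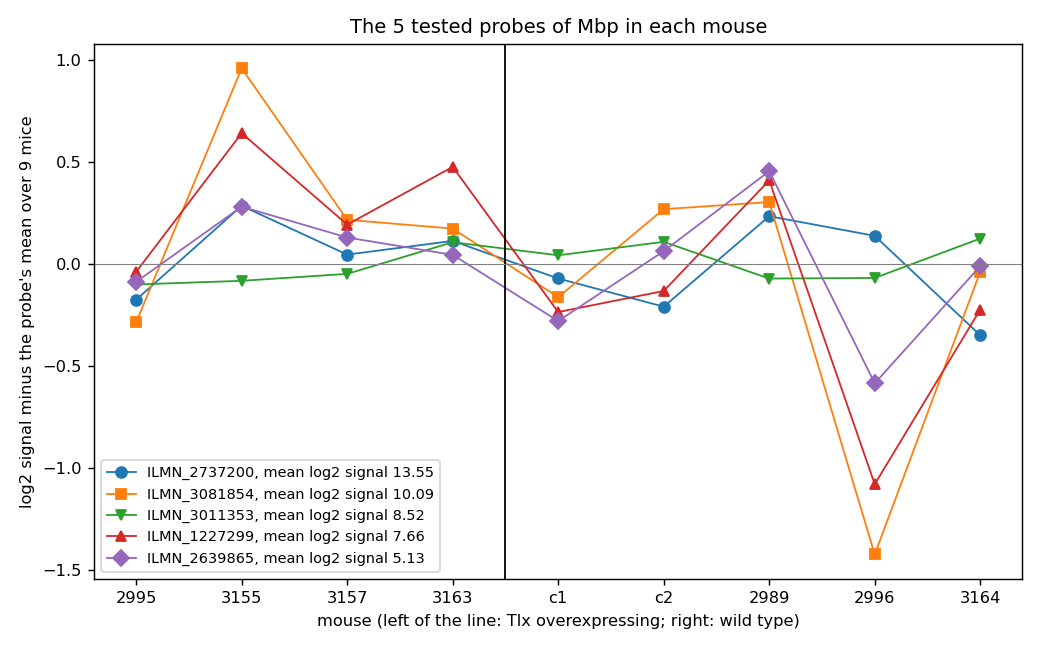
Log2 signal of the 5 tested probes of Mbp minus each probe's mean over 9 mice, by mouse; lines join the values of 1 probe, and mice have no order within a genotype. In wild type mouse 2996, 3 probes fall far below while the brightest probe, ILMN_2737200, stays above its mean.

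A wider set of 53 lineage and myelin genes that are no members was read in the same fit. Of its 40 tested genes the Tlx overexpressing mice had the higher mean in 28 and the lower in 12, 0 passed the threshold, and the median difference was 0.12. Among 8 tested precursor genes 5 were higher. Sox10, the SOX factor that drives myelin genes, read 10.05, 10.31, 10.18 and 10.16 in Tlx overexpressing mice, against 9.56, 9.96, 10.18, 9.66 and 9.67 in wild type mice. Wild type mouse 2989 reached the Tlx overexpressing range and the other wild type mice lay below it (difference 0.37, SE 0.12, limma adjusted p = 0.15). The calcium channel subunit gene Cacng4 and the proteoglycan gene Vcan differed by 0.26 (SE 0.14) and 0.23 (SE 0.12).

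Of 4 tested genes of the committed stage, 1 was higher and 3 were lower. Bmp4, a growth factor made by committed cells, read 7.72, 6.70, 6.96 and 7.16 in Tlx overexpressing mice, against 7.83, 7.90, 7.46, 8.00 and 7.15 in wild type mice. Mouse 2995 lay with the wild type mice and 3164 with the Tlx overexpressing mice, for a difference of -0.53 (SE 0.21, limma adjusted p = 0.20). With mouse number range as a block it was -0.12 (adjusted p = 0.80), and it was -0.008 in the lower range and -0.21 in the higher range. Cnksr3 differed by -0.28 (SE 0.12) and the Wnt pathway factor gene Tcf7l2 by 0.27 (SE 0.13).

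Of 28 tested genes of mature oligodendrocytes 22 were higher and 6 lower, with a median difference of 0.14. Klk6, a secreted protease of oligodendrocytes, read 7.94, 9.21, 8.21 and 8.40 in the Tlx overexpressing mice, against 7.39, 7.71, 7.83, 7.60 and 7.36 in wild type mice. The genotypes did not overlap, and 3155 was far the highest, but the difference of 0.87 (SE 0.20) missed the threshold (limma adjusted p = 0.065). A dimmer Klk6 probe differed by 0.61. The genotypes also separated in Car2, a carbonic anhydrase gene named here after its values were seen, with 9.36, 9.43, 9.38 and 9.40 in Tlx overexpressing mice, against 9.57, 9.73, 9.76, 9.52 and 9.45 in wild type mice. Car2 lay on the other side, with a difference of -0.21 (SE 0.09, limma adjusted p = 0.22). These were 2 of the 40 wider genes, beside the 6.8% of all named genes that separated. Hapln2, a link protein of the nodes of Ranvier, read 7.67, 8.37, 7.96 and 7.91 in Tlx overexpressing mice, against 7.35, 7.17, 7.75, 7.51 and 6.99 in wild type mice. Mice 2995 and 2989 overlapped, and the difference was 0.63 (SE 0.16, adjusted p = 0.080). In the lower range it was 0.04, and 0.23 for Klk6, against 1.09 and 1.25 in the higher range. Dock10 differed by 0.33 (SE 0.13).

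The markers of other cells differed between these samples as well. Slc17a7, the vesicular glutamate transporter of cortical neurons, read 7.88, 9.51, 8.24 and 8.12 in Tlx overexpressing mice, against 4.97, 5.15, 10.37, 10.23 and 6.12 in wild type mice. The mice with the brightest myelin genes, wild type 2989 and Tlx overexpressing 3155, were among the 3 brightest for this neuronal gene, but the third, wild type 2996, had a myelin and mature level of -0.12. The level of 8 tested general neuron markers ran between -0.02 and 0.25 in Tlx overexpressing mice and between -0.49 and 0.50 in wild type mice. Slc17a7 is one of these, and without it the level ran between -0.08 and 0.05 in Tlx overexpressing mice and between -0.18 and 0.22 in wild type mice. The level of 8 striatal neuron markers was lowest in 2989 (-0.20) and highest in 3164 (0.22), the reverse of the myelin and mature level. That of 9 astrocyte markers was highest in 2989 (0.23) and was 0.004 in 3164. Lower in Tlx overexpressing mice were 7 of 8 ependymal, 7 of 8 striatal, 6 of 9 astrocyte and 6 of 9 endothelial markers. All 4 tested blood markers were higher, and 0 in these lists passed. All 10 tested choroid plexus markers were lower in Tlx overexpressing mice and 2 passed the threshold, with levels of -1.03 to 0.16 against 0.07 to 0.66 in wild type mice. All 7 tested markers of SVZ progenitors and neuroblasts were higher and 4 passed, with levels of 0.11 to 0.41 in Tlx overexpressing mice against -0.35 to 0.04 in wild type mice. Of all named genes 1.13% passed, and the marker lists were chosen with earlier results of these data known. The neuroblast gene Dcx was detected in 9 of 9 mice. Of 8 microglial markers 7 were higher and 0 passed (levels of 0.06 to 0.25 in Tlx overexpressing mice and -0.24 to 0.15 in wild type mice). The part of these cells, and of how much neighbouring tissue was cut out, in the values of the lineage genes was not tested. Without wild type mice 2989 and 2996, 4 Mobp probes passed the threshold, with the brightest at 0.60 (limma adjusted p = 0.012), and no other member did. These mice had the brightest Slc17a7 of the wild type and were chosen after seeing the data. They were also the highest wild type mice on each of those 4 Mobp probes, so leaving them out could only raise the Mobp difference.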

How the data were processed

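The labels give laser-microdissected SVZ of 4 Tlx overexpressing and 5 wild type mice on 10 arrays. The authors deposited 2 tables of linear intensity, which the values show to be before and after quantile normalization. A detection p-value per probe was deposited beside the latter table, per the file headers. The software behind them is not stated in the sources used here.

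The intensity before normalization was corrected with normexp (negative controls inferred from detection p-values, offset 16), quantile-normalized and log2-transformed, all with limma 3.58.1 under R 4.3.3. For c1, both arrays were averaged. Levels of different probes are not comparable. Each array detected 44.3% to 45.5% of 45281 probes, and the number of mice limits the precision. Genes were named from the platform annotation, updated through RefSeq (GRCm38.p6), and are counted by their brightest tested probe.

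Genotypes were compared with lmFit and eBayes, two-sided, with Benjamini-Hochberg adjustment over 20401 probes, which called 192. Shown mouse by mouse are the 4 members of each role with the smallest p, and of wider lists the 3 with the smallest p are named. The members and lists were chosen with earlier results of these data known. The procedure was tested on simulated data. The 20 alternatives covered background, normalization, offset, filter, array weights, the c1 arrays, mouse number range as a block (2995, 2989 and 2996; 3155, 3157, 3163 and 3164; c1 and c2), and mice left out. The numbers within a genotype pair no mice. The p-values set the difference of the genotype means against the spread between mice of a genotype. The number ranges are unequally shared between the genotypes, and c1 and c2 are both wild type. In the main fit any difference between the ranges therefore enters the genotype difference as well as that spread.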

Additional observations from a re-analysis of the deposited data

Results flagged for a closer look

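In each genotype, the gap between the outermost mouse and the nearest other mouse was divided by the range of that genotype. A mouse was singled out where this share exceeded the 95% critical value of Dixon's test for that number of mice. Of 56 groups, 5 met this, and chance gives about 1 in 20. Pdgfra was high in Tlx overexpressing mouse 2995, at 8.02 against 7.77 in the next mouse. Trf was high in Tlx overexpressing mouse 3155, at 11.91 against 11.64. Lhfpl3 was high in wild type mouse 3164, at 6.14 against 5.64, although that mouse was the lowest for most myelin genes. Sirt2 was high in wild type mouse 2989, at 8.62 against 8.29. Gsn was low in wild type mouse 2996, at 5.13 against 6.47.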

How the results depend on the processing

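Depth here is signal over background and the number of mice. Dim members (Neu4, Olig2, the 5 not tested and, less so, Cspg4 and Lhfpl3) are limited by both. Member probes past the threshold numbered 0 with all mice in under every setting run, and 0 to 1 with 1 mouse left out. Mobp was 0.33 to 0.52 then, and passed only without wild type mouse 2989, the highest of the wild type on that probe. Without wild type mice 2989 and 2996 (added after seeing the data), 4 member probes passed, all of Mobp (brightest 0.60). On these probes the mice left out were the highest of the wild type. Opalin ran between -0.52 and -0.33, never past the threshold. The precursor minus myelin difference ran between -0.09 and 0.10, within 1 SD of the main value in each case; array weights do not apply to it. Probes called in all numbered 122 with an offset of 50, 56 with no filter, 51 with mouse number range as a block, 609 with array weights, 26 to 758 with 1 mouse left out (26 without 3157, 758 without 2995) and 403 without 2989 and 2996. Klk6 and Hapln2 passed with array weights (0.81 and 0.66) and without mouse 2995 (1.03 and 0.73), Hapln2 without 2989 and 2996 (0.81), and Bmp4 without 2995 (-0.73). With the block, Bmp4 was -0.12, Lhfpl3 0.002, Vcan 0.40 and Dock10 0.50. Small differences changed sign. With median scaling, which moved the median of all probes to 0.03, Cnp became 0.067, Fa2h 0.035 and Qdpr 0.004. With the block, Gpr17 became -0.009, Enpp6 -0.083, Cnp 0.08 and Ugt8a -0.009. Fa2h became 0.04 with array weights, and Cnp 0.007 with the first c1 array. Without 2989 and 2996, Pdgfra became 0.046, Neu4 0.051, Cnp 0.082, Fa2h 0.135, Qdpr 0.174 and Sirt2 0.026. With 1 mouse left out, Cnp ran between -0.087 and 0.094, Fa2h between -0.078 and 0.104, Enpp6 between -0.049 and 0.171, Ugt8a between -0.041 and 0.174, Cspg4 between -0.017 and 0.146, Neu4 between -0.056 and 0.017, Qdpr between -0.131 and 0.092, Gpr17 between -0.034 and 0.195, Olig1 between -0.013 and 0.23, Sirt2 between -0.087 and 0.022, Evi2a between -0.044 and 0.144, and Plekhb1 between -0.004 and 0.162. The causes were not tested.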
